A study of Mus musculus with 9 samples.

Results

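The histone genes described here are 80 of the 45535 rows that carried a gene symbol in a bulk RNA-seq table of mouse lung dendritic cells. A row was a member when its symbol had the form of a clustered histone gene (H1f, H2ac, H2bc, H3c or H4c with a number), of an H2A.Z or H2A.X gene, or of H3f with a number. That last form takes in the H3.3 genes and others such as H3f4, and 5 rows named as pseudogenes were dropped. Of the 80 members, 66 were replication-dependent histone genes, 13 were variant histone genes, and 1, H3f3aos, was a transcript from the strand opposite to H3f3a that the symbols also matched. The class of each member came from its symbol and not from its values, but the separate class of H3f3aos was set after the values were seen.

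Histones package DNA into nucleosomes, in which DNA wraps around H2A, H2B, H3 and H4, and H1 binds the DNA between nucleosomes. Replication-dependent histone genes lie in clusters, mostly lack introns, and are transcribed mainly in S phase, when new DNA needs packaging. Their mRNAs usually end in a conserved hairpin rather than a poly(A) tail, and the protein Slbp binds that hairpin for processing, translation and decay. Variant histone genes such as H3f3a, H3f3b (H3.3), H2az1 and H2az2 (H2A.Z) stand alone, carry introns and poly(A) tails, and supply histones outside S phase as well.

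The cells were CD103+ dendritic cells taken with magnetic beads from collagenase-digested lungs of C57/BL6j mice, all of which had received bleomycin, which injures the lung and leads to fibrosis, for 7 days. One group of 5 samples was harvested directly (before culture), and a second group of 4 samples was kept ex vivo in serum-supplemented RPMI medium for 18 h (after culture). Both groups therefore carry the bleomycin treatment and the isolation, and the age of the mice is not given in the sources used here. The extraction text speaks of whole-lung RNA, while the other labels name the sorted cells. Nothing says that the samples came from separate mice, so the spread between samples may be technical.

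Depth ran from 14673818 to 28793443 recovered reads of named genes per sample before culture and from 26003300 to 35286110 after it. The label was checked on 10 markers of CD103+ (cDC1) cells. All 10 were present, and Itgae, which encodes CD103, had a mean normalized count of 18138 before and 1727 after culture, and Xcr1 had 5836 before and 114 after. Lower and higher here are limma calls at an adjusted p under 0.05, defined below. By these calls 34.6% of all tested rows were lower and 34.2% higher. Of the cDC1 markers 8 of 10 were lower after culture, and so were 6 of 6 for NK cells, 6 of 7 tested for neutrophils, 4 of 6 for alveolar macrophages, 4 of 7 for monocytes and interstitial macrophages, 7 of 7 for endothelial cells, 6 of 6 for fibroblasts, 7 of 7 for alveolar epithelium and 5 of 5 for erythroid cells. Batf3, a transcription factor of cDC1 cells, was higher (log2 fold change 0.56, adjusted p = 0.00387), as was the neutrophil collagenase gene Mmp8, from a mean of 401 to 9876 (log2 fold change 4.57, adjusted p = 8.93e-10). The summed endothelial markers, as one instance, fell from 23311 to 33498 in the samples before culture to 3252 to 4278 after it, and the summed cDC1 markers from 134690 to 162180 down to 18966 to 20724. Of the T cell markers 2 of 9 were lower and 1 was higher, and of the B cell markers 2 of 7 were lower and 1 higher, and no marker was at 0 in all 9 samples. These shifts moved together with the histone genes, and their part in the histone results was not tested. In bulk RNA, fewer cells of a type and less RNA per cell cannot be told apart.

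The hairpin is the feature that sets the replication-dependent mRNAs apart, so its letters are shown first. Transcripts in the GENCODE M21 annotation (GRCm38) were searched for a hairpin opening with GG, with a 6-base stem, and a 4-base loop opening with TT. It was found in 39 of the 61 replication-dependent members that matched the annotation, in 1 of the 11 matched variants (H2ax; H1f9 and H3f5 had no match), and in 130 of 21901 protein-coding genes (0.594%). Of the other replication-dependent members, 15 have fewer than 16 bases of 3′ untranslated sequence annotated, too few to hold the hairpin there, and 7 have such sequence without the hairpin. The search covered whole transcripts, so the 130 genes may include matches outside the 3′ untranslated sequence. The 16 hairpin bases are in capitals below, with 5 flanking bases on each side, and each line is 1 of the 7 forms that the members held.
H3c1, replication-dependent H3, chr13:23761885-23761910, minus strand: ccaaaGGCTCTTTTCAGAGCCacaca
H3c3, replication-dependent H3, chr13:23745042-23745067, minus strand: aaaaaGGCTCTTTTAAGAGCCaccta
H2ac20, replication-dependent H2A, chr3:96220413-96220438, minus strand: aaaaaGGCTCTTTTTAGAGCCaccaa
H4c6, replication-dependent H4, chr13:23551286-23551311, minus strand: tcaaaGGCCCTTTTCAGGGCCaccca
H4c9, replication-dependent H4, chr13:22040961-22040986, minus strand: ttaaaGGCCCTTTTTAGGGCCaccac
H4c11, replication-dependent H4, chr13:21735432-21735457, plus strand: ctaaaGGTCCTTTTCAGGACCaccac
H2ax, variant H2A, chr9:44335235-44335260, plus strand: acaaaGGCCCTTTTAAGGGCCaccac
The form of H3c1 was shared by 22 genes of the H1, H2A, H2B and H3 families, that of H3c3 by 6 genes of H1, H2B and H3, and that of H4c6 by 6 H4 genes. The forms of H4c9 and of H4c11 were held by 2 H4 genes each. H2ac20 and H2ax each carried a form of their own.

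Replication-dependent histone transcripts were far lower after culture. Of the 66 genes, 54 averaged 10 normalized counts or more over the 9 samples and were tested, and 50 of these were lower, 3 were higher (H2ac25, H2bc21 and H3c15) and 1 (H4c9) did not pass the test. Calls use limma on log2(normalized count + 1) with a Benjamini-Hochberg adjusted p under 0.05 over all tested rows, by which 34.6% of the 18202 tested rows were lower and 34.2% higher. The median log2 fold change of the tested replication-dependent genes was -2.12, beside 0.0065 over all tested rows, and 29 of them fell at least 4-fold, as 8.19% of all tested rows did. In 51 of the 54 genes the samples of both groups did not overlap, against 57.3% of all tested rows. The 12 genes that were not tested include 7 at 0 in every sample, so no statement covers them.

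**Figure D1:**
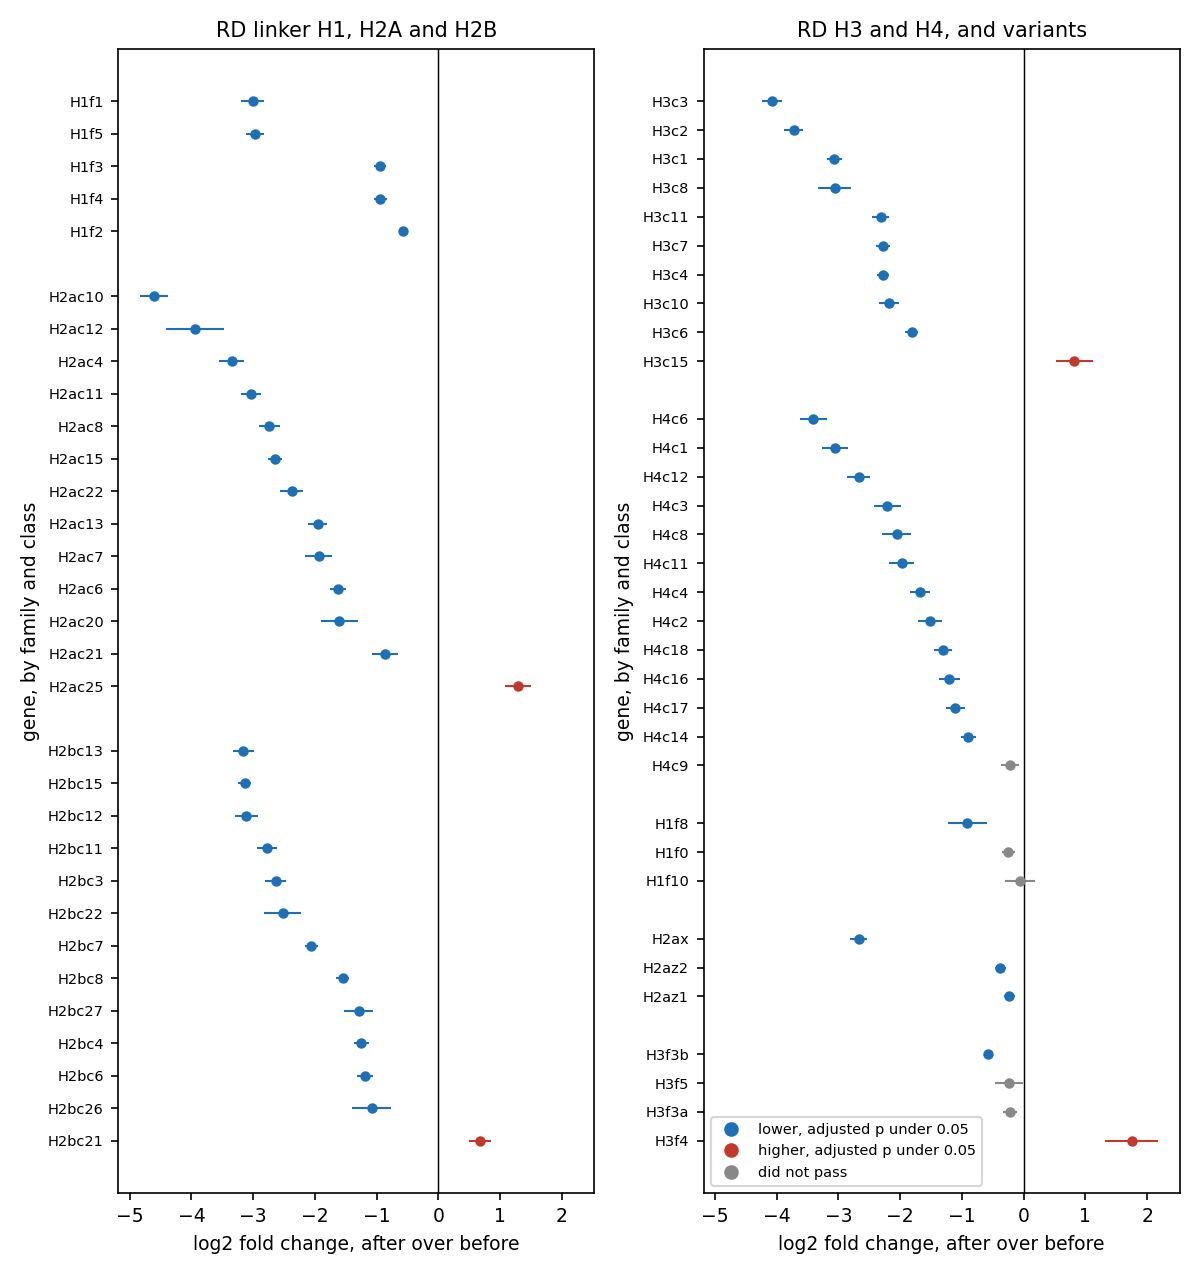
Log2 fold change after over before culture for each tested histone gene, by family and class (RD, replication-dependent), as points with the standard error of the fit as bars; blue genes were lower, red genes higher and grey genes did not pass. Replication-dependent genes reach from -4.61 in H2ac10 to 1.29 in H2ac25, and of the variants only H2ax lies among the large falls.

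Summed over the class, replication-dependent transcripts had normalized counts of 72085, 70018, 66547, 47933 and 69475 in replicates 1 to 5 before culture. After culture the sum was 17969, 20482, 16542 and 20277 in replicates 1 to 4. The lowest sample before culture, replicate 4, was still above every sample after it, and the means were 65212 ± 9860 (SD, n = 5) and 18817 ± 1897 (SD, n = 4), 3.47-fold lower. Without replicate 4 before culture the ratio was 3.70. As a share of all reads of named genes, this class held 0.199% to 0.276% before and 0.0699% to 0.0774% after culture.

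By family, the summed level fell most in H3 (5.46-fold) and H2A (4.48-fold), and H4 and H2B fell 3.70-fold and 3.65-fold. The linker histone H1 genes fell 2.00-fold. These sums carry no test, since they are scores over members. H1 therefore made up a larger part of the replication-dependent reads after culture, 32.3% ± 0.992 (SD, n = 4) against 18.8% ± 1.85 (SD, n = 5). The H3 part shrank from 24.4% ± 1.10 (SD, n = 5) to 15.4% ± 0.986 (SD, n = 4), and neither the H1 nor the H3 shares of the groups overlapped.

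**Figure D2:**
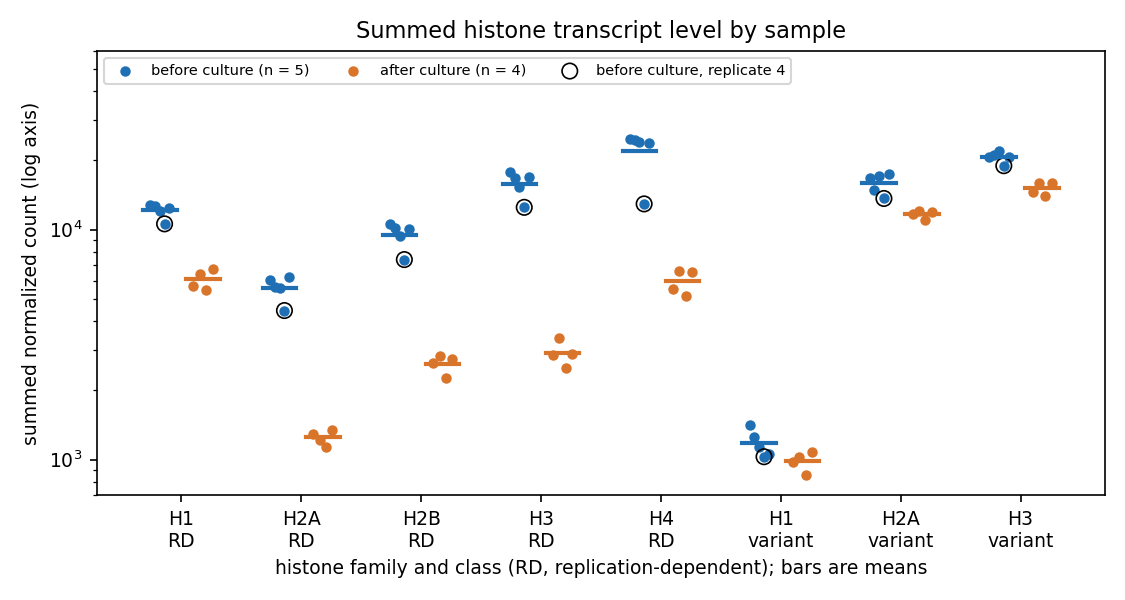
Summed normalized count (log axis) of each histone family and class in each sample, with 5 samples before culture in blue, 4 after culture in orange, group means as bars and replicate 4 before culture circled. In all 5 replication-dependent families the groups are apart, and the circled sample is the lowest before culture in each, most of all in H4 (12948 against 23841 to 24904).

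The H1 genes encode the linker histones, and all 5 tested replication-dependent members were lower, with a median log2 fold change of -0.95, but they fell into unequal steps. H1f5 had normalized counts of 1654, 1506, 1529, 1213 and 1441 before and 206, 241, 135 and 179 after culture. The lowest sample before was several times the highest after, and the log2 fold change was -2.97 (SE 0.147, adjusted p = 1.05e-09). H1f1 was alike, with a log2 fold change of -3.01 (adjusted p = 1.06e-08). H1f2, the H1 gene with the most reads, went from 4903, 4959.8, 4762, 4175 and 4824 to 2994, 3244, 3009 and 3499. Its groups were also apart, but the log2 fold change was only -0.57 (SE 0.0760, adjusted p = 1.76e-05). H1f3 and H1f4 lay between, at -0.95 and -0.94. The transcript annotated for H2bc6 overlaps H1f4 on the same strand, so reads there may be split between both genes. The testis gene H1f6 was under the test's minimum.

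Among the H2A genes, which encode the core histone that pairs with H2B, 12 of 13 tested members were lower and 1 was higher, with a median of -2.37. H2ac10 had the largest fall of any histone gene. Its normalized counts were 577, 525, 451, 413 and 517 before and 20.3, 28.8, 10.9 and 21.3 after culture. That is 24.4-fold lower in the mean, with a log2 fold change of -4.61 (SE 0.224, adjusted p = 8.77e-10). H2ac12 fell by 3.94 on the log2 scale (SE 0.471, adjusted p = 6.18e-06), from 100.4 to 132 down to 0.910 to 12.9. Over 90% of the 50-base windows of both transcripts also occur in other genes, so which copy the reads came from is uncertain. H2ac25 went the other way, with 90.5, 99.0, 150.3, 176 and 119.9 before and 294, 230.5, 407 and 309 after culture. All samples after culture were above all before it, and the log2 fold change was 1.29 (SE 0.208, adjusted p = 9.18e-05).

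The H2B genes followed the same order, with 12 of 13 tested members lower, 1 higher and a median of -2.06. H2bc15 was among the most clearly separated, with 1414, 1437, 1211, 1142 and 1328 before and 139.6, 166, 124 and 162 after culture, a log2 fold change of -3.14 (SE 0.110, adjusted p = 4.22e-11). Its lowest sample before was several times its highest after. H2bc6 and H2bc4 fell less, at -1.19 and -1.24. H2bc26 was lower at -1.08 (adjusted p = 0.00861), although its replicate 4 before culture, at 25.1, lay within the range after culture of 18.5 to 31.8. H2bc21 was the member that rose, from 83.8, 91.6, 98.7, 82.0 and 102 to 118, 119, 152 and 214. Its groups did not overlap, and the log2 fold change was 0.68 (SE 0.183, adjusted p = 0.00493). Its annotated transcript of 2620 bases has no hairpin and carries a poly(A) signal (AATAAA) near its end. This is not particular to genes that rose. H4c1, which was lower, also has the signal and no hairpin. H3c15, which was called higher, has a hairpin and no such signal.

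In the H3 family 9 of 10 tested members were lower, 8 of them at least 4-fold, with a median of -2.30. H3c3 had 3132, 2795, 2619.6, 1816 and 2787 before and 180.2, 183, 123 and 133 after culture. The mean was 17-fold lower, and the log2 fold change -4.08 (SE 0.160, adjusted p = 1.15e-10). H3c2 was close to it at -3.72 (SE 0.154, adjusted p = 1.88e-10). H3c6 and H3c7, with the most reads of the family, fell by 1.81 and 2.28 on the log2 scale. H3c6 went from 4174, 3792, 3501, 2844 and 3891 to 979.6, 1081, 923 and 1137, again without overlap. H3c15 was called higher at a low level, with 29.5, 18.6, 30.3, 36.8 and 16.1 before and 49.5, 40.9, 65.5 and 31.2 after culture. Its groups overlapped, the log2 fold change was 0.82 (SE 0.296, adjusted p = 0.0246), and the call was lost without replicate 2 or 5 before culture or replicate 1 or 3 after it (adjusted p from 0.0566 to 0.0840).

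All 13 H4 genes were tested, and 12 were lower, with a median of -1.68. Mouse H4 genes encode the same protein or nearly so, and H4c4 gave the most reads of any replication-dependent gene. H4c4 had 8662, 8368, 8386, 4867 and 8057 before and 2128, 2689.9, 2050.0 and 2578 after culture, a log2 fold change of -1.68 (SE 0.155, adjusted p = 5.00e-07). H4c6 fell most, from 3888, 3844, 3713, 1651 and 3732 to 259.7, 312, 277 and 368. The mean was 11.1-fold lower and the log2 fold change -3.41 (SE 0.220, adjusted p = 1.35e-08). H4c3 and H4c8 followed at -2.21 and -2.06, and H4c14, the H4 gene of the chromosome 3 cluster, was at -0.89 (adjusted p = 1.82e-05). H4c9 had 135, 145, 135, 102 and 124 before and 109.5, 109, 93.7 and 125 after culture. Its groups overlapped, and the log2 fold change of -0.22 (SE 0.148, adjusted p = 0.198) did not pass.

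One sample stood apart within its group. Replicate 4 before culture had the lowest value of its group in 50 of the 54 tested replication-dependent genes, and in all 13 H4 genes. Its median ratio to the middle of the other samples before culture was 0.581 over the H4 genes, 0.696 over H2B, 0.758 over H3, 0.794 over H2A and 0.858 over H1. The variants were at 0.873. H4 therefore made up 27.0% of its replication-dependent reads, against 34.3% to 36.3% in the other samples before culture. After culture, replicate 3 was the lowest of its group in 39 of the 54 genes. The library names give it the same number, 4, as replicate 4 before culture, while the titles number them differently. Over the tested rows, the deviations of these samples from their group means correlated at 0.35. Whether they came from the same preparation is not given in the sources used here. Leaving out replicate 4 before culture left 50 genes lower and 3 higher and moved the median to -2.27. Markers of the alveolar epithelium were highest in the same sample (40368 against 24074 to 27819), as were those of NK cells (2781 against 1320 to 1671) and T cells (8994 against 7280 to 7588). Markers of monocytes and interstitial macrophages were lowest in it (23972 against 34538 to 41517). Replicate 3 after culture had the same order within its group. Its alveolar epithelium (8162 against 4293 to 4730), NK (459 against 263 to 310) and T cell markers (8788 against 6484 to 7679) were highest. Its markers of monocytes and interstitial macrophages were lowest (9629 against 14737 to 22773). The part of these cells in the histone values of both samples was not tested.

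**Figure D3:**
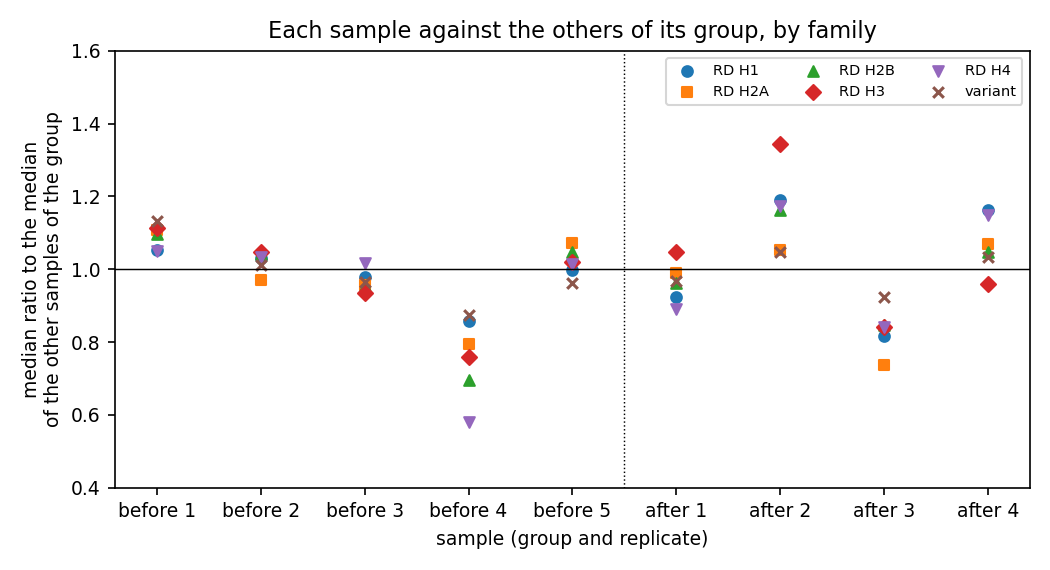
Median over the tested genes of a family of the ratio of each sample to the median of the other samples of its own group, with 5 samples before culture left of the dotted line and 4 after it to the right. Replicate 4 before culture lies below 1 in every family, from 0.858 in H1 down to 0.581 in H4, and replicate 3 after culture is the lowest of its group in each.

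A list of RNAs that carry no poly(A) tail, mostly small structured RNAs of nuclear machines, was set beside the histone genes, since hairpin-ended histone mRNAs lack that tail too. Of its 20 genes 14 were found in the table and 10 were tested, and all 10 were lower, with a median of -1.90. Among all tested rows 34.6% were lower. Rpph1, the RNA of RNase P, had 76692, 76564, 80409, 38442 and 68295 before and 16009.9, 18633, 12634 and 16924 after culture, a log2 fold change of -2.05 (SE 0.195, adjusted p = 6.50e-07). Scarna2 and Scarna10, guide RNAs of Cajal bodies, were at -1.73 and -1.74, and Rnu12, the U12 RNA of the minor spliceosome, at -2.69. Summed over the list, replicate 4 before culture again had the lowest level of its group, 56903 against 113358 to 141939 in the other samples, and the samples after culture had 19107 to 30291. The summed list and the replication-dependent genes thus moved together both between the groups and in replicate 4, but Rpph1 made up most of that sum. Before culture, Rpph1, Scarna2 and Rnu12 were lowest in replicate 4, whereas Scarna10 was lowest in replicate 2 (1377 against 1504 in replicate 4). After culture, Rpph1, Scarna10 and Rnu12 were lowest in replicate 3, whereas Scarna2 was highest there (2205). How far the share of RNA without a poly(A) tail that entered each library bears on the histone values was not tested.

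Hairpin genes were set side by side by the annotated 3′ end of the transcript. Among those whose transcript ends within 100 bases after the hairpin, 17 of 17 tested genes were lower, with a median of -2.64. Among those whose transcript goes on for 100 bases or more, 14 of 16 tested genes were lower and 1 higher, with a median of -1.59. The 12 tested genes with fewer than 16 bases of 3′ sequence annotated were all lower, with a median of -2.66. Of the 5 tested genes with such sequence and no hairpin, 4 were lower and 1 (H2bc21) was higher. The boundary of 100 bases was chosen after the values were seen. Genes with long annotated ends include H1f3 (4884 bases after the hairpin, -0.95), H2bc6 (1861 bases, -1.19), H4c14 (1257 bases, -0.89), H1f4 (1153 bases, -0.94) and H1f2 (840 bases, -0.57). H3c3 (74 bases, -4.08), H3c2 (51 bases, -3.72) and H4c6 (33 bases, -3.41) end shortly after it. Other genes with long ends fell more, among them H2ac6 (2010 bases, -1.63), H4c4 (770 bases, -1.68), H4c3 (454 bases, -2.21) and H3c7 (365 bases, -2.28). H4c17 ends 3 bases after the hairpin and was at -1.10, so the ranges of both kinds overlap. H1f2, H1f3 and H1f4 gave most of the reads of H1, the family whose sum fell least. The other tested H1 genes, H1f1 and H1f5, have little or no 3′ untranslated sequence annotated and no hairpin, and fell more, as given above. Whether family or annotated end bears on these values was not tested.

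**Figure D4:**
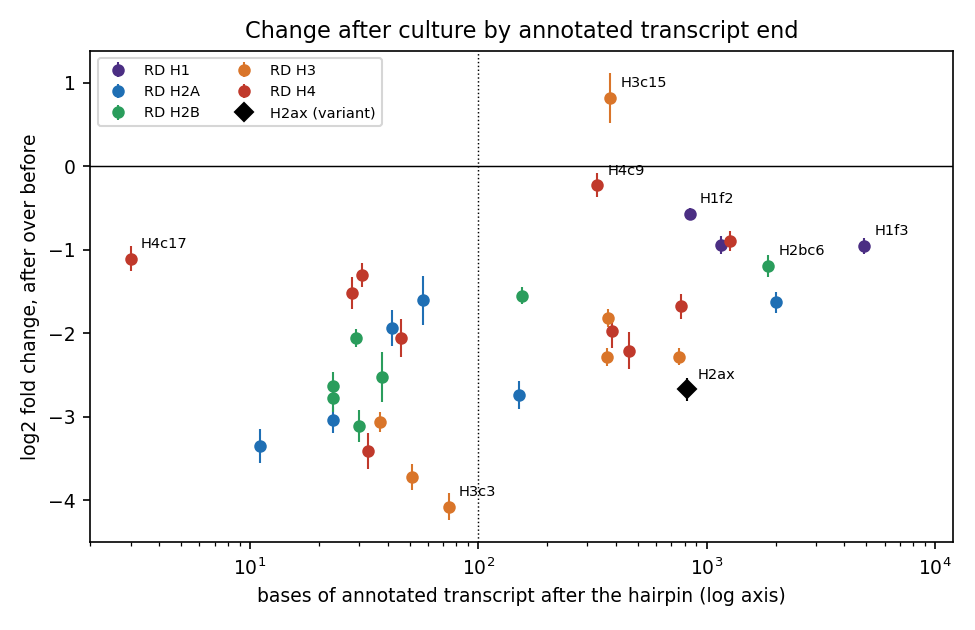
Log2 fold change after over before culture against the bases of annotated transcript after the hairpin (log axis), with the standard error of the fit as bars and colours for the families; the dotted line is at 100 bases. Genes to the left lie between -4.08 (H3c3) and -1.10 (H4c17), and genes to the right between -2.74 (H2ac8) and 0.82 (H3c15), with H2ax at -2.67.

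Most of the replication-dependent genes lie in the cluster on mouse chromosome 13. In GENCODE M21 (GRCm38), 51 of the 61 matched members are on that chromosome (H2ac25, H2bc24, H2bc26, H2bc27 and H4c16 had no match), 21 in a block at chr13:21715763-22043676 and 30 in a second at chr13:23531050-23934851, and 57 of the 61 have a single exon. Of the 11 matched variants, 6 have a single exon too. Of 45 tested chromosome 13 genes 44 were lower, with a median of -2.31, and H4c9 did not pass. The smaller cluster at chr3:96219865-96270132 has 10 members. Of its 5 tested genes 3 (H2ac20, H2ac21 and H4c14) were lower and 2 (H2bc21 and H3c15) higher, with a median of -0.86. The other 5 (H2ac18, H2ac19, H2bc18, H3c13 and H3c14) were at 0 in every sample, and every 50-base window of their transcripts also occurs in another annotated gene. Over both clusters 12 members share over 90% of their windows, and 8 of these were not tested. Values of 0 in such copies were therefore not read as a lack of expression.

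Promoters of the members, taken from RefSeq (GRCm38.p6) as 250 bases before to 50 after each start, were searched on both strands for short motifs of histone genes. CCAAT was found in all 6 promoters of H1, all 17 of H2A, all 12 of H2B and all 10 of H3 among the replication-dependent genes, in 3 of 11 of H4, and in 37.4% of all 32851 promoters. TATAAA was in 8 of 11 H4, 11 of 17 H2A, 4 of 6 H1, 7 of 12 H2B and 4 of 10 H3 promoters, against 13.6% of all. The octamer ATGCAAAT was in 6 of 17 H2A and 5 of 12 H2B promoters and in none of H1, H3 or H4, against 1.74% of all. The H1 motif AAACACA was in 5 of 6 H1 promoters (7.18% of all), and the core of the H4 motif, GGTCC, in 10 of 11 H4 promoters (45.5% of all). Of 10 variant promoters, 7 held GGTCC, 6 CCAAT, 2 TATAAA, 1 the octamer and 1 AAACACA. A match describes the letters only. The 250 bases before the start are printed for 1 gene each of H1, H3 and H4, to show how the families differ ahead of genes that fell together. Capitals mark, on either strand, the H1 motif with the CCAAT and TATA boxes in H1f5, the CCAAT box in H3c3, and the H4 motif with the TATA box in H4c4. H4c4 is among the 3 H4 promoters with CCAAT. Its box lies on the other strand just before the TATA box (attgg) and is left in small letters.
H1f5, minus strand, chr13:21780626-21780875: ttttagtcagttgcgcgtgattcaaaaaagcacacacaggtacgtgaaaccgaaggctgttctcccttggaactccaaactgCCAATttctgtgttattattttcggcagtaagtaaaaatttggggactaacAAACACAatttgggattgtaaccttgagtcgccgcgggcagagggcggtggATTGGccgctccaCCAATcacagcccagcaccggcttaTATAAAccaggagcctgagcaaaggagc
H3c3, minus strand, chr13:23745522-23745771: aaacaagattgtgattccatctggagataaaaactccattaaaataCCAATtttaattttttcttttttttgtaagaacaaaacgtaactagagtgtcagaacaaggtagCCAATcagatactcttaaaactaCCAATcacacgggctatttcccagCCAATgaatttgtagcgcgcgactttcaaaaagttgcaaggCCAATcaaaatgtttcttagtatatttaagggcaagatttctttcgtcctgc
H4c4, plus strand, chr13:23581318-23581567: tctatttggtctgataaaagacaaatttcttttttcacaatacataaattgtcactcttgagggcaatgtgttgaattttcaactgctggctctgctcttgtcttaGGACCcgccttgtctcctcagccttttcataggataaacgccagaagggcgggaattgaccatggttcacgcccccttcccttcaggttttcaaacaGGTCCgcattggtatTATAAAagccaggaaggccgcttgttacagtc
These 3 genes were at -2.97, -4.08 and -1.68.

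H2A and H2B genes often stand back to back and share the stretch between their starts. There were 11 such pairs within 1000 bases, with annotated starts 176 to 306 bases apart, and both genes were tested in 9. The median absolute difference in log2 fold change within a pair was 0.50, and over all H2A against all H2B genes it was 1.17. H2ac7 and H2bc7 were close, at -1.94 and -2.06, whereas H2ac8 fell by 2.74 and H2bc8 by 1.55 on the log2 scale. The widest pair was H2ac20 at -1.60 and H2bc21 at 0.68, a difference of 2.28. The bases between the RefSeq starts are printed for a like and an unlike pair, read along the H2B gene, with the CCAAT box, TATA box and octamer of either strand in capitals.
H2ac7 and H2bc7, minus strand, chr13:23574208-23574380: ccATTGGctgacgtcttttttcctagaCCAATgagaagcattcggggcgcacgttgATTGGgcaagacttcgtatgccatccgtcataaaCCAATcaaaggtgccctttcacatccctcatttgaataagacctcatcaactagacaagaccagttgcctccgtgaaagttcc
H2ac8 and H2bc8, plus strand, chr13:23571221-23571399: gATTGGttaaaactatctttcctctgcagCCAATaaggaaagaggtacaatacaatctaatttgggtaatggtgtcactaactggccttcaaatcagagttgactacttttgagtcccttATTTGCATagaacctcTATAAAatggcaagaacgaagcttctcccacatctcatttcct
The first stretch holds 4 CCAAT boxes and no TATA box or octamer, and the second 2 CCAAT boxes and 1 of each of the others. Other pairs did not follow this split. H2ac13 and H2bc13, at -1.95 and -3.16, also hold 4 CCAAT boxes and no TATA box or octamer. H2ac22 and H2bc22, at -2.37 and -2.52, hold 4 CCAAT boxes and 1 TATA box. Whether these motifs bear on the changes was not tested.

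Variant histone genes had smaller fold changes. Of 13 members 10 were tested, and 5 were lower (H2ax, H2az1, H2az2, H3f3b and H1f8), 1 was higher (H3f4) and 4 did not pass (H3f3a, H3f5, H1f0 and H1f10), with a median log2 fold change of -0.24. That median was -0.13 under upper quartile scaling and -0.46 with GC content and length in the model, and 3 variants were lower without replicate 1 after culture. Among all tested rows 34.6% were lower and 34.2% higher, so the number of variants called is not read as a result about them. Summed, the variants had normalized counts of 38895, 37327, 40314, 33685 and 39195 before and 27182, 29096, 25881 and 29019.8 after culture. The groups were apart, and the ratio of the means was 1.36, beside 3.47 for the replication-dependent genes.

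H2ax was the exception. H2A.X is the variant that is phosphorylated around DNA breaks, and its gene has both a hairpin, shown above, and a longer annotated end of 822 bases after it. H2ax had 3082, 2849.9, 2681, 1908 and 2769 before and 464, 475, 330.3 and 393 after culture. It was the only tested variant that fell at least 4-fold, with a log2 fold change of -2.67 (SE 0.140, adjusted p = 1.79e-09), inside the range of the replication-dependent H2A genes. Counting it with those genes gave 51 lower.

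H2az1 and H2az2 encode H2A.Z, found at promoters and enhancers. H2az1 had 13101, 11401, 13903, 11203 and 14057 before and 10663, 11080.4, 10283 and 11144 after culture. Its groups came close, with a log2 fold change of -0.23 (SE 0.0858, adjusted p = 0.0274). The call was lost without replicate 1, 3 or 5 before culture, without replicate 1 or 3 after it (adjusted p from 0.0567 to 0.0724), and under upper quartile scaling (adjusted p = 0.204). H2az2 went from 684, 663, 608, 559.9 and 596 to 524, 491, 455 and 442, a log2 fold change of -0.38 (SE 0.0907, adjusted p = 0.00216). Both groups of H2az2 were apart.

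H3f3a and H3f3b encode the same H3.3 protein, which is deposited outside replication. H3f3b had 13686, 14334, 14658, 14081 and 14080.1 before and 8968, 10416, 9016 and 9804 after culture, and fell by 0.57 on the log2 scale (SE 0.0708, adjusted p = 8.63e-06). H3f3a had 6896, 6776, 7293, 4848 and 6594 before and 5532, 5564, 4872 and 6109 after culture. Its replicate 4 before culture was the lowest of all 9 samples, and the log2 fold change of -0.22 (SE 0.112, adjusted p = 0.0932) did not pass, but without that sample it was -0.32 (adjusted p = 0.00218), and with GC content and length in the model -0.49 (adjusted p = 0.00649). Outside this pair, H3f4 was low, with 7.62, 4.95, 3.37, 10.0 and 1.79 before and 17.7, 14.4, 26.4 and 18.2 after culture. It rose by 1.75 on the log2 scale (SE 0.427, adjusted p = 0.00244). H3f5 had a mean of 34.5 ± 5.91 (SD, n = 5) before and 29.2 ± 5.42 (SD, n = 4) after, and did not pass.

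The antisense transcript H3f3aos was higher, with 36.2, 27.2, 26.9, 30.1 and 41.2 before and 86.6, 50.8, 98.3 and 80.6 after culture (log2 fold change 1.24, SE 0.231, adjusted p = 0.000321). It overlaps H3f3a on the other strand, and whether the counting used strand is not given in the sources used here, so reads of both cannot be told apart where they overlap, which is a small part of H3f3aos.

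Among the linker variants, H1f0, the H1.0 gene linked to differentiated cells, had 1268, 1157, 1013, 939 and 916 before and 885, 920.4, 769.8 and 984 after culture. The groups overlapped and its log2 fold change of -0.25 (SE 0.109, adjusted p = 0.0594) did not pass, but it passed with edgeR (adjusted p = 0.0428), with DESeq2 (adjusted p = 0.0470), and without replicate 4 or 5 before culture or replicate 4 after it (adjusted p from 0.0329 to 0.0455). H1f10 had a mean of 84.99 ± 28.7 (SD, n = 5) before and 78.0 ± 8.88 (SD, n = 4) after culture and did not pass, but with GC content and length in the model it was higher, at 1.22 (adjusted p = 9.03e-05). H1f8, known as the oocyte linker histone, was low, from 34.3, 23.5, 34.8, 44.4 and 21.5 to 8.83, 22.7, 20.02 and 15.2. It was called lower at -0.91 (SE 0.320, adjusted p = 0.0213), with overlapping groups. That call was lost without replicate 4 before culture (adjusted p = 0.0507) or replicate 1 after it (adjusted p = 0.0757), and with GC content and length in the model, where the log2 fold change was -0.60 (adjusted p = 0.117).

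The balance of reads within families shifted toward the variants. H3f3a and H3f3b together held 53.6%, 55.6%, 58.8%, 60.1% and 54.997% of all H3 reads before and 83.4%, 82.3%, 84.4% and 84.4% after culture. Every sample after culture was above every sample before it. H2az1 and H2az2 held 61.9% ± 2.55 (SD, n = 5) of H2A reads before and 87.1% ± 0.659 (SD, n = 4) after, while H2ax went from 12.3% ± 1.37 (SD, n = 5) to 3.20% ± 0.445 (SD, n = 4). Variant H1 genes held 8.83% ± 0.760 (SD, n = 5) of H1 reads before and 13.95% ± 0.510 (SD, n = 4) after. Over all members the replication-dependent share fell from 63.0% ± 2.67 (SD, n = 5) to 40.3% ± 1.11 (SD, n = 4). These are shares of reads, not of molecules, since transcript lengths differ between the genes. The shares may also depend on how reads matching several genes were counted, which is not given in the sources used here. H2ac18, H2ac19, H3c13 and H3c14, whose every window also occurs in another gene, added no reads to the H2A and H3 sums. Among the variants, 69.6% of the windows of H2az1 and 30.3% of those of H3f3a also occur in other genes. The effect of such shared reads on these shares was not tested.

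**Figure D5:**
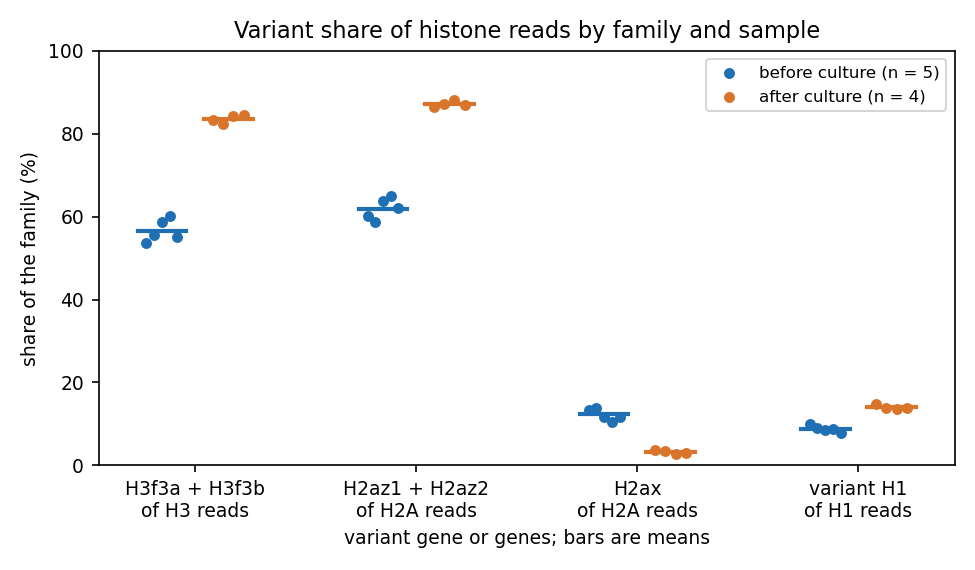
Share of the reads of a histone family that came from variant genes, in percent, with 5 samples before culture in blue, 4 after culture in orange and bars for the means. The H3.3 share of H3 reads went from 53.6% to 60.1% before culture up to 82.3% to 84.4% after it, and the H2ax share of H2A reads fell below 4%.

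Histone genes outside these symbols moved between the classes. Cenpa, the centromeric H3, Macroh2a1 and Macroh2a2, which carry a macro domain, and H2aj were tested of an 11-gene list, 7 of whose genes were found, and all 4 were lower with a median of -1.05. H2afv, listed but not found by symbol, is the GENCODE M21 name of H2az2, a member described above. The share of all tested rows that were lower was 34.6%. Cenpa went from 1308 ± 103 (SD, n = 5) to 611 ± 61.0 (SD, n = 4), a log2 fold change of -1.10 (adjusted p = 1.37e-07). Macroh2a1 was at -1.04, Macroh2a2 at -1.06 and H2aj at -0.68.

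The machinery that makes and degrades histone mRNA moved in both directions. Of 20 genes 8 were higher, 7 lower and 5 did not pass, with a median of -0.04, and these shares are near those of all tested rows (34.2% higher and 34.6% lower). Slbp, the hairpin-binding protein, had 1030.2, 978, 1006, 1142 and 1094 before and 708, 710.4, 861 and 744 after culture, a log2 fold change of -0.48 (SE 0.0839, adjusted p = 0.000204). Its groups were apart. Npat, the coactivator that turns on the histone clusters, was higher at 0.37 (SE 0.0917, adjusted p = 0.00273). Eri1, an exonuclease that trims histone mRNA ends, and Mif4gd, a partner of Slbp in translation, were higher at 0.41 and 0.50, and Cstf2t, a polyadenylation factor, at 1.12. Tut7, which adds uridines to histone mRNA as it decays, was lower at -0.75 (adjusted p = 2.91e-07), and so was Snrpb, which encodes a protein of the spliceosome, at -0.82.

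Histone chaperones, which carry histones to and from DNA, also moved in both directions. Of 28 genes 14 were lower, 6 higher and 8 did not pass, with a median of -0.24. With GC content and length in the model 10 were lower and 11 higher. The main fit called 34.6% of all tested rows lower and 34.2% higher. Chaf1a, the large subunit of the chaperone that loads H3 and H4 behind replication forks, had 499, 533, 513, 416 and 528 before and 131, 163, 123 and 92.0 after culture (log2 fold change -1.98, SE 0.150, adjusted p = 6.46e-08). Asf1b, a chaperone of new H3 and H4, was at -2.35 (adjusted p = 7.12e-08), whereas its paralog Asf1a was higher, from 209, 236, 197, 258 and 175 to 429, 389, 478 and 506 (log2 fold change 1.07, adjusted p = 6.62e-06). Nasp, which holds soluble H3 and H4, was at -0.70 (adjusted p = 9.63e-06). Of the H3.3 chaperones, Atrx was higher at 0.34 (adjusted p = 0.00148), and Hira (0.12, adjusted p = 0.263) and Daxx (-0.23, adjusted p = 0.0670) did not pass, and with GC content and length in the model Daxx turned to 0.28 (adjusted p = 0.00948). Anp32e, which removes H2A.Z, was lower at -1.16, Spty2d1, an H3 and H4 chaperone, lower at -1.89, and Supt16, a subunit of FACT, higher at 0.38.

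Genes of S phase and of mitosis fell with the replication-dependent histones. In the S-phase list 26 of 30 genes were lower, 1 was higher and 3 did not pass, with a median of -1.23. The shares of all tested rows were 34.6% lower and 34.2% higher. Ccna2, the cyclin of S phase and G2, went from 1092 ± 43.9 (SD, n = 5) to 158 ± 23.6 (SD, n = 4), a log2 fold change of -2.79 (adjusted p = 6.63e-11). E2f2, a transcription factor of S-phase genes, was at -2.18, Mcm5 of the replicative helicase at -1.82, Pole of a replicative polymerase at -1.66, Ccne1, the cyclin of S-phase entry, at -1.13, and Pcna, the sliding clamp, went from 3699 to 1871 in the mean (adjusted p = 4.11e-06). Tk1, thymidine kinase, was the member called higher, at 0.46 (adjusted p = 0.00963). All 14 mitotic markers were lower, with a median of -2.56, among them Mki67 at -2.28, Top2a at -2.69, Ccnb2 at -3.10, Kif11 at -3.15 and Tpx2 at -2.44. In replicate 4 before culture, where the replication-dependent histones were lowest, the summed S-phase genes were also the lowest of the group (29794 against 31304 to 32561 in the others). The summed mitotic markers, at 21917, were the highest of the group there (18784 to 21131 in the others).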

How the data were processed

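RNA-seq of CD103+ lung dendritic cells was analysed in 5 samples before and 4 after culture. The authors deposited 1 table of normalized counts per gene (a signal in which 1 read is worth the same for every gene of a sample). DESeq2 and the build GRCm38 are named per the submitters' processing notes, without a role, and aligner, counter and strand are not given in the sources used here. All values, 100% of them, were whole multiples of 1 read within 0.001, so reads were recovered. Of 49317 rows, 3782 without a symbol were left out.

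Rows with a mean of at least 10 were tested with limma 3.58.1 (R 4.3.3) on log2(normalized count + 1), with a trended prior and Benjamini-Hochberg adjustment over 18202 rows at 0.05. Fold changes on this scale understate those of low genes. The deposited scaling was kept. edgeR 4.0.16 and DESeq2 1.42.0 on recovered reads, other scalings, pseudocounts, filters, a GC and length correction, a replicate block and leaving out each sample were alternatives, and the scripts were tested on simulated data. Plots and sums used Python 3.11.15, pandas 2.3.3, NumPy 2.4.6 and matplotlib 3.10.9.

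Members were described by family sums, shares and counts without a test over lists. Genes were named by rule: all tested variants, the 10 replication-dependent genes with the highest mean, the 5 largest rises and 5 largest falls, calls against the majority, in each list up to 4 genes with the smallest adjusted p and up to 3 against its median, and a set given by name. Other members named were chosen after their values were seen, as were the class of H3f3aos and the 100-base boundary. The members and lists were chosen with earlier results of these data known. Of the listed genes, Rn7sk, Terc, Rn7s1, Rn7s2, Scarna13, Vaultrc5, H2afv, H2bu2, H4f16 and H2aw were not matched by symbol. Of the 80 members 73 matched GENCODE M21 and 72 the RefSeq table by symbol.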

Additional observations from a re-analysis of the deposited data

Results flagged for a closer look

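For each tested variant and named replication-dependent member, and for the family sums and shares, the gap of an extreme sample to its neighbour was compared with the range of its group. Of 90 such group values 11 had a sample far from the others, where chance flags about 1 in 20, which is 4.5 of 90. In 9 of the 11, replicate 4 before culture was the lowest of its group. These were H4c6 (a normalized count of 1651), H4c4 (4867), H4c3 (875), H1f2 (4175), H1f4 (1661), H3f3a (4848), the summed replication-dependent genes (47933), the summed H4 genes (12948) and the H4 share of replication-dependent reads (27.0%). The same sample had the highest H1 share of those reads, 22.1%. These values share reads and are not independent of each other. After culture, replicate 3 was far above the others for H3f5, at a normalized count of 37.3.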

How the results depend on the processing

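Over the alternatives run, 46 to 51 replication-dependent genes were lower and 2 to 4 higher, with medians from -2.27 to -1.72, the last under the correction for GC content and length. That correction, which covered 97.8% of the tested rows, moved the median of all rows to 0.13 and the share of calls that were higher from 49.7% to 58.2%. Under it 2 variants and 11 chaperones were higher, the variant median was -0.46, and H1f10 (1.22), Daxx (0.28) and the T cell marker Cd3g (-0.14) changed sign; the cause was not tested. Upper quartile scaling moved the median of all rows to 0.11, and under it the summed variants stood at -0.34 on the log2 scale against -0.45. At a minimum mean of 50 the count of higher variants was 0, since H3f4 was then not tested. Leaving out 1 sample at a time gave 3 to 6 lower variants, the 3 without replicate 1 after culture. Over all named genes and alternatives, 27 values lost a call, 14 gained one and 2175 kept direction and side of the threshold. limma called 12524 rows, edgeR 12562 and DESeq2 12663.

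The replicate numbers of the titles did not pair the samples, since same-numbered samples correlated at 0.081, 0.080, -0.21 and -0.040. By the numbers in the library names the correlations were 0.081, 0.25, 0.35 and 0.045, and each of the 4 samples after culture correlated best with its own number. With a replicate block by title 11646 rows were called, and H3c15 (adjusted p = 0.0789) and H2az1 (adjusted p = 0.124) did not pass while H1f0 did (adjusted p = 0.0418). With a replicate block by library name 12836 rows were called and H3f3a passed (adjusted p = 0.0312). Under both blocks 50 replication-dependent genes were lower. Low genes are limited by depth, since 1 read was worth between 0.758 and 1.79 normalized counts.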
